A study of Drosophila melanogaster with 44 samples.

Results

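The genes described here carry the names of cytosolic ribosomal proteins of Drosophila melanogaster, though RpLP0-like, RpL24-like and RpL7-like resemble factors of large-subunit assembly. The set was every gene whose symbol begins with RpL (large subunit) or RpS (small subunit) in the array's annotation. That rule gave 41 genes, of 11889 genes that the array annotation placed on a chromosome arm. Each was read from 1 probe set, and where a gene had several the brightest on average was used. Release 6 of the genome lists 92 such symbols, and the other 51 were not analysed here, nor were 3 probe sets that carry several gene symbols.

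The ribosome translates messenger RNA in every cell, and each particle needs its proteins in fixed numbers. In Drosophila many of these genes are known as Minute loci, because flies with a single functional copy develop slowly and have short, thin bristles. Several members exist as a pair in which one gene is used broadly and its paralog is known mainly from the germline. The ovary makes large amounts of ribosomes for the egg, so the amount of germline in a whole female also matters for this group.

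RNA came from whole adult females, 15 flies per sample, 0 to 24 h old, kept at 25 °C. A deficiency is a chromosome that lacks a run of neighbouring genes, and in flies heterozygous for it that segment is left in 1 copy. The 7 single-deletion genotypes were Df(2L)ED4559/+, Df(2L)ED3/+, Df(2R)ED1612/+, Df(2R)ED1770/+ and Df(3R)ED10953/+ with 3 arrays each, and Df(3R)ED5071/+ and Df(3R)ED7665/+ with 2 each. They are called by their ED names below. A further 19 arrays came from 19 combinations of 2 deletions, each measured once. In 4 of these, which pair deletions of one arm (ED4559 with ED3, ED1770 with ED1612, and ED10953 with ED5071 or ED7665), the labels write one deletion over the other. ED1770 with ED10953 and ED5071 with ED7665 are not among the combinations. There were also 6 arrays of wild-type females. Single deletions were tested against wild type, while the doubles were tested against the singles and set beside wild type as values only. The labels call the replicates biological, and the p-values below measure the spread between these samples.

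The values are log2 signals of probe sets on the 44 arrays, normalised by the authors, with array medians between 5.50 and 5.73. Precision is limited by how many arrays each genotype has. Array numbers in the labels separate the classes: wild type had numbers 1 to 6 and every deletion array 7 or higher, so array order and deletion cannot be told apart in a comparison with wild type. The deletion arrays also fall into 2 sets of 19, numbered up to 26 and from 27, and each set holds single and double genotypes. In the check of the tissue, 33 of the 36 germline markers on the array averaged at least 6, and so did 14 of 20 eggshell and yolk markers. Of 25 testis markers, 1 did (mia).

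None of the 41 members lay inside a deleted segment, so no member was at a single copy in any genotype. Each segment was mapped as the run of neighbouring genes that were lower in its carriers. The nearest member was RpS21, 18 genes outside the ED4559 segment on arm 2L. RpL27 lay 46 genes from the ED10953 segment on arm 3R, RpL40 61 genes from ED4559 and RpL34a 97 genes from ED10953. As far as this mapping shows, any difference below is in a gene that was present in both copies.

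Most bright members held a nearly constant level across genotypes. Of the 41, 34 averaged at least 6 and were tested. In 29 of these the mean was at least 13, and it ran from 13.34 for RpL17 to 14.39 for RpL41, the smallest protein of the large subunit. The SD over all 44 arrays of these 29 lay between 0.044 and 0.126, with a median of 0.0676. Another 112 genes on the array were as bright, and their median SD was 0.128. All 29 members lay below that value. The median SD of all tested genes was 0.251. Signals this close to the highest value on any array, 14.66, can be compressed by the array, and the part of that in the small spread was not tested.

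RpL41 lay between 14.33 and 14.49 in the doubles (median 14.40) and between 14.31 and 14.46 in the singles (median 14.40), against 14.17 to 14.47 in wild type (median 14.37). RpLP1, a protein of the stalk that recruits elongation factors, lay between 14.14 and 14.30 in the doubles and between 14.13 and 14.33 in the singles, against 14.11 to 14.27 in wild type. RpS29, a zinc-binding protein of the small subunit, averaged 14.15 ± 0.07 (SD, n = 19) in the doubles and 14.16 ± 0.07 (SD, n = 19) in the singles, against 14.20 ± 0.05 (SD, n = 6) in wild type. The 3 classes differed by less than their spread for each of these genes. The median of the 29 members, taken as the difference of each array from the wild-type mean, ran from -0.14 to 0.06 in the doubles and from -0.08 to 0.06 in the singles, against -0.08 to 0.10 among the wild-type arrays themselves.

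**Figure D1:**
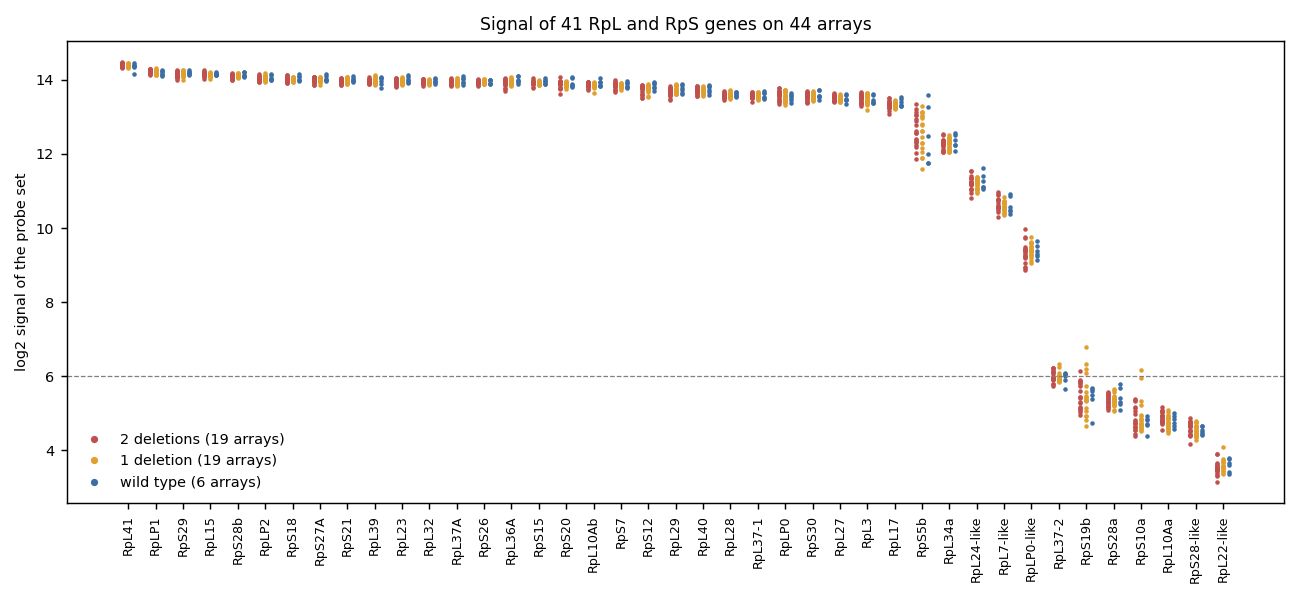
The log2 signal of each of the 41 genes (x axis, ordered by mean) on every array, with flies of 2 deletions (19 arrays, red) left of flies of 1 deletion (19 arrays, amber) and wild type (6 arrays, blue). The 29 genes averaging 13 or more form a narrow band in which the 3 classes overlap, RpS5b spreads over more than the others among the bright genes, and 7 genes average under the dashed filter at 6.

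The other 5 tested members varied more, with a median SD of 0.171. RpS5b, a paralog of RpS5a known for its use in the ovary germline, had the highest SD, 0.507, around a mean of 12.59. RpLP0-like, whose yeast homolog is an assembly factor of the large subunit, had an SD of 0.232 around 9.37. It lay between 8.87 and 9.98 in the doubles and between 9.05 and 9.77 in the singles, against 9.14 to 9.64 in wild type. RpL24-like and RpL7-like, which likewise resemble yeast factors of large-subunit assembly, averaged 11.21 and 10.62 with SDs of 0.171 and 0.163. RpL24-like ran from 10.80 to 11.55 in the doubles and from 10.94 to 11.38 in the singles, against 11.04 to 11.62 in wild type. RpL7-like ran from 10.31 to 10.97 in the doubles and from 10.36 to 10.85 in the singles, against 10.38 to 10.91 in wild type. RpL34a, a large-subunit protein with a mean of 12.28 and an SD of 0.146, ran from 12.04 to 12.55 in the doubles and from 12.04 to 12.52 in the singles, against 12.08 to 12.58 in wild type. In all 4 of these genes the classes overlapped over most of their range.

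The first comparison asked whether carrying a deletion as such moved ribosomal protein RNA. It set the mean of the 7 single deletions against wild type in limma, with p-values adjusted by Benjamini-Hochberg over all genes tested. None of the 34 members passed an adjusted p of 0.05, against 1.28% of the 7193 tested genes outside the segments. None had an unadjusted p under 0.05 either, against 21.05% of all tested genes, and the smallest adjusted p was 0.259. The differences lay between -0.07 (RpS12) and 0.16 (RpS5b), with a median of -0.03, against -0.00 over all tested genes. They were negative for 27 members, with a median standard error of 0.0382. The intervals are wide for one gene only: for RpS5b the 95% interval ran from -0.40 to 0.72, so a sizeable difference in either direction remains possible there.

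Each deletion was also set against wild type on its own, and 0 of 34 members passed in any of the 7. The shares of all tested genes that passed were 0.0537% for ED4559, 0.0134% for ED3, 0.0134% for ED1612, 0.0539% for ED1770, 0.363% for ED5071, 0.0269% for ED7665 and 0.121% for ED10953, so few genes of any kind did. At an unadjusted p under 0.05 there were 3 members in ED10953, against 6.15% of all tested genes. There were 0 in each of the other 6, where 6.41% to 16.2% of all tested genes had one. The largest difference among the 29 bright members was that of RpS12 in ED10953, -0.25 ± 0.056 (SE), with an adjusted p of 0.0832 in limma. Without wild-type replicate 1 it was -0.28 with an adjusted p of 0.0417. In the other 24 of 25 leave-one-out fits it did not pass, with adjusted p up to 0.499. In 8 of 9 other settings it did not pass either, and the adjusted p in limma ran from 0.0103 to 0.680 over the 9. A limma F test among the 7 deletions called 0 of 34 members, against 0.0973% of all genes, and 1 member, RpS12, had an unadjusted p under 0.05 (0.0275), against 4.12% of all genes. The doubles were then compared with a mean of the single deletions in which every deletion had the weight it has among the doubles. Again 0 of 34 members passed in limma, against 0% of all genes, and 0 members had an unadjusted p under 0.05, against 3.59% of all genes. Those differences ran from -0.08 to 0.06, so a second deletion came with no detectable change at this precision.

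**Figure D2:**
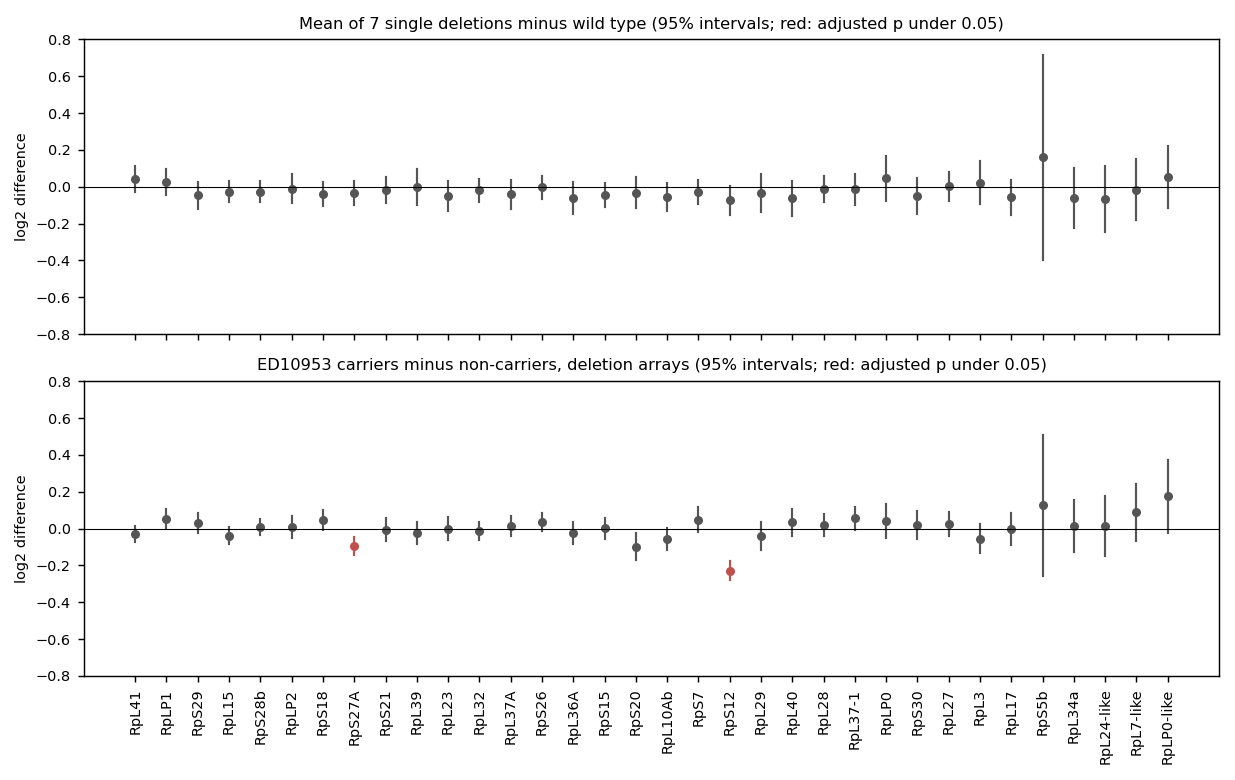
Differences on the log2 scale (y axis) for the 34 tested members (x axis, ordered by mean), with 95% intervals; the upper panel sets the mean of 7 single deletions against wild type and the lower panel sets ED10953 carriers against the other deletion arrays. All intervals in the upper panel include 0, and in the lower panel RpS12 (-0.23) and RpS27A (-0.10), in red, passed an adjusted p of 0.05.

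Because the doubles share deletions with the singles, each deletion could also be compared between carriers and non-carriers among the 38 deletion arrays, with a term for the 2 array-number sets and the other deletions in the same fit. This has more arrays per contrast and does not use wild type. No member passed in limma for ED4559 (0.551% of all tested genes did), ED3 (0.362%), ED1612 (0.134%), ED1770 (4.42%), ED5071 (3.2%) or ED7665 (0.39%). The unadjusted p was under 0.05 for 0 members in ED4559, against 10.4% of all tested genes, 1 in ED3 (10.1%), 1 in ED1612 (6.67%), 2 in ED1770 (26.4%), 3 in ED5071 (19.2%) and 0 in ED7665 (6.17%). For ED10953, 2 of 34 members passed and both were lower, RpS12 and RpS27A, against 5.61% of all tested genes in either direction and 2.53% lower.

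RpS12 is a small-subunit protein known in Drosophila for its part in the competition between cells that differ in ribosomal protein gene dose. In flies with ED10953 alone its log2 signal was 13.53, 13.68 and 13.56. In the doubles it was 13.59 with ED4559, 13.59 with ED1612, 13.51 with ED3, 13.50 with ED5071 and 13.65 with ED7665. The 16 arrays of the other single deletions ran from 13.71 to 13.88 with a median of 13.79, and the 14 other doubles from 13.69 to 13.86 with a median of 13.80. Wild type read 13.71, 13.88, 13.81, 13.94, 13.92 and 13.78. All 8 carriers thus lay below all 36 other arrays.

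The carriers averaged 13.58 ± 0.06 (SD, n = 8) and the other deletion arrays 13.80 ± 0.05 (SD, n = 30). The fitted difference was -0.23 ± 0.025 (SE), with an adjusted p of 6.69e-07 in limma, and corresponds to 85.4% of the non-carrier signal (95% interval 82.3 to 88.5). Fitted within the arrays numbered up to 26 alone it was -0.23 with an adjusted p of 0.0102, and within those from 27 alone -0.23 with an adjusted p of 0.0193. Of the 7466 tested genes outside the ED10953 segment, 1 gene (0.0134%) had every carrier below every other array, and that gene was RpS12. Another 6 genes (0.0804%) had every carrier above, none of them a member. RpS12 is on arm 3L and the deletion on 3R. Its probe set is of the kind marked _s_at, whose probes match more than one transcript.

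RpS27A encodes ubiquitin joined to a small-subunit protein. It was 13.87, 13.97 and 13.95 in ED10953 alone, and its 5 doubles ran from 13.85 to 14.02. The other deletion arrays ran from 13.95 to 14.09 as singles and from 13.91 to 14.09 as doubles, and the 6 wild-type arrays ran from 13.97 to 14.15 with a median of 14.01. The groups overlapped. Its difference was -0.10 ± 0.025 (SE), or 93.6% of the non-carrier signal (90.4 to 97.0), with an adjusted p of 0.0191 in limma. In 5 of 11 alternative settings it no longer passed, within either array-number set among them, where its adjusted p was 0.123 and 0.469. Its difference stayed between -0.11 and -0.07 over the 11 settings. RpS20 had a difference of similar size, -0.10, with an adjusted p of 0.122 in that limma fit. With the germline list as a covariate RpS20 passed as lower.

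**Figure D3:**
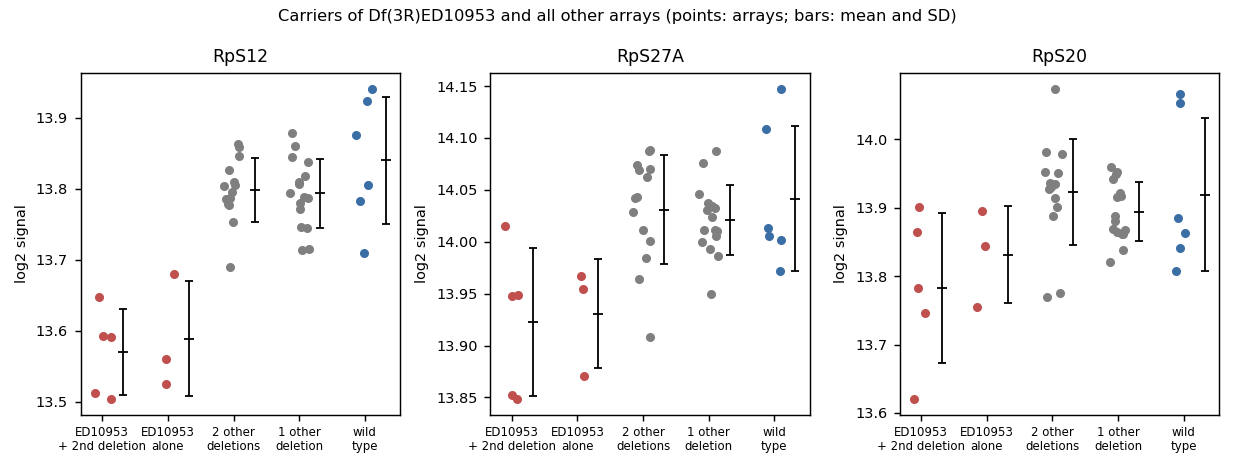
Log2 signals (y axis) of RpS12, RpS27A and RpS20 on each array for ED10953 carriers (red, with a second deletion or alone), other deletion genotypes (grey) and wild type (blue); points are arrays and bars the mean and SD. For RpS12 the 8 carriers, between 13.50 and 13.68, sit below all 36 other arrays, which begin at 13.69, while the RpS27A groups overlap.

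Other measures moved with the ED10953 carriers, and their part in the RpS12 difference was not tested beyond the settings given here. Of 14 tested eggshell and yolk genes, 6 passed as lower in carriers, against 2.53% of all tested genes. They were led by the vitelline membrane genes Vm26Aa (-4.16), Vm34Ca (-4.15) and Vm32E (-3.73). The array means of that list, relative to wild type, ran from -2.49 to 1.21 in carriers (median -2.27) and from -2.33 to 2.12 in the other deletion arrays (median -0.55). With that list as a covariate, a setting chosen after the data were seen, the RpS12 difference was -0.21 with an adjusted p of 1.23e-06. With the germline list as a covariate it was -0.23 with an adjusted p of 2.22e-08. The germline list itself ran from -0.65 to 0.86 in carriers and from -0.80 to 0.76 in the other deletion arrays. Of its 32 tested genes 1 passed in ED10953, zuc, a piRNA pathway gene (0.65), against 5.61% of all tested genes. In ED1770, 2 of 32 passed, png (0.89) and Fs(2)Ket (-0.27), against 4.42% of all tested genes. In ED5071, 2 of 33 passed, Fs(2)Ket (-0.40) and tud (-0.39), against 3.2%. These are adjusted for array set and the other deletions. Unadjusted, Fs(2)Ket averaged 9.79 ± 0.19 (SD, n = 7) in ED5071 carriers and 9.97 ± 0.18 (SD, n = 31) in non-carriers, and tud 9.98 and 10.27.

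Genes that work with the ribosome were read from lists in the same fit. Rack1, a scaffold protein on the small subunit, was the only gene tested of 5 listed as other cytosolic ribosome genes. It was lower in ED10953 carriers by -0.19 ± 0.040 (SE), with an adjusted p of 0.00366 in limma. Carriers averaged 13.12 ± 0.12 (SD, n = 8) and non-carriers 13.35 ± 0.07 (SD, n = 30). Of 26 tested translation factors, 3 fell in ED10953 carriers and 1 rose: eIF3c (-0.26) and eIF3b (-0.25), subunits of the factor that binds the small subunit, eIF4A (-0.11), the helicase, and eIF5 (0.22). Of all tested genes, 5.61% passed in ED10953, 2.53% as lower, while 3.2% passed in ED5071 and 4.42% in ED1770, and the list counts here are read beside those shares. The median difference of the 26 was 0.06, against -0.00 over all tested genes. Of 24 tested in ED5071, 2 rose, eIF3c (0.30) and eIF3g1 (0.27). Of 30 tested genes on the ribosome biogenesis list, 1 rose in ED10953, eIF6 (0.49), which keeps the subunits apart. On that list 1 fell in ED1770, bor (-0.26). The place of bor on the list is doubtful, so its fall is not read as a change in ribosome biogenesis. The list medians were 0.15 in ED10953 and -0.10 in ED1770. Of 9 tested RNA polymerase I genes 1 passed as lower in ED5071, TAF1C-like (-0.28). Of 11 tested genes of the response to ribosome stress, GstE6 rose in ED10953 (0.48) and Gcn2, a kinase that slows translation initiation, passed as lower in ED5071 (-0.39). Every ED5071 array is numbered from 27, and all carrier differences here are adjusted for array set and the other deletions. Without adjustment several were smaller. TAF1C-like averaged 6.34 in carriers and 6.39 in non-carriers, and Gcn2 7.24 and 7.28, both within the spread. In ED5071, eIF3g1 averaged 11.51 ± 0.20 (SD, n = 7) against 11.38 ± 0.12 (SD, n = 31). In ED10953, eIF5 averaged 10.66 ± 0.23 (SD, n = 8) against 10.46 ± 0.27 (SD, n = 30). In ED1770, bor averaged 9.69 ± 0.18 (SD, n = 8) against 9.83 ± 0.16 (SD, n = 30). For eIF3c in ED5071 it was not smaller, at 10.38 against 10.07. Against wild type, averaged over the 7 deletions, none of these lists had a gene that passed.

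RpS5b varied most among the tested members, and it varied between replicates of one genotype. It was 12.61, 12.15 and 12.78 in ED4559, 11.59, 12.28 and 12.96 in ED3, 12.06, 12.31 and 12.61 in ED1612, and 11.89, 12.46 and 13.14 in ED1770. It was 13.04 and 13.04 in ED5071, 13.14 and 13.11 in ED7665, and 11.88, 12.80 and 13.28 in ED10953. The 19 doubles ran from 11.86 to 13.34 with a median of 12.56. Wild type read 11.75, 12.48, 11.76, 13.58, 13.26 and 12.01. Replicates of one genotype therefore differed by more than a log2 unit in ED3, ED1770, ED10953 and wild type. In these 3 deletions the gap lay between replicate 1, with an array number up to 26, and replicate 3, numbered from 27. It thus spans both array-number sets, and the set term put RpS5b 0.64 higher from 27. The wild-type arrays all have numbers up to 6.

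The germline list is the mean of 33 marker genes per array, and its difference from the wild-type mean ran from -0.73 to 1.21 among the wild-type arrays alone. RpS5b rose with this list with a slope of 0.94 ± 0.055 (SE) log2 units per log2 unit over the 44 arrays, in a limma fit across all genes with a term for array-number set (adjusted p = 1.0e-18). The slope was between 0.88 and 0.96 in 9 alternative settings, within wild type and within each array-number set included. In bulk RNA of whole females, fewer germline cells and less RNA per germline cell cannot be told apart. The slope was computed after the data were seen.

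All 34 tested members had a positive slope on the germline list, and 33 passed in limma, against 71.9% of all tested genes in either direction, 37.7% with a positive and 34.1% with a negative slope. The median slope was 0.0970 for the members and 0.00936 for all tested genes. After RpS5b came the assembly-factor relatives RpL24-like (0.31) and RpL7-like (0.28), then RpL34a (0.23), RpS20 (0.15) and RpL17 (0.15). RpL41 had the lowest slope that passed, 0.04. RpLP0-like, at 0.14, did not pass (adjusted p = 0.0898). The count depends on scale and on the arrays used. With arrays centred on their medians 12 members passed, 33 of 34 slopes were positive, and the medians were 0.045 for the members and -0.044 for all genes. Centred, 73.7% of all genes passed. Within wild type 11 members passed, against 63.7% of all genes. Within arrays numbered up to 26, 4 members passed, against 18.4%, and within those from 27, 30 members passed, against 49.2%. All members that passed in these settings had positive slopes, while these shares of all genes count both directions.

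**Figure D4:**
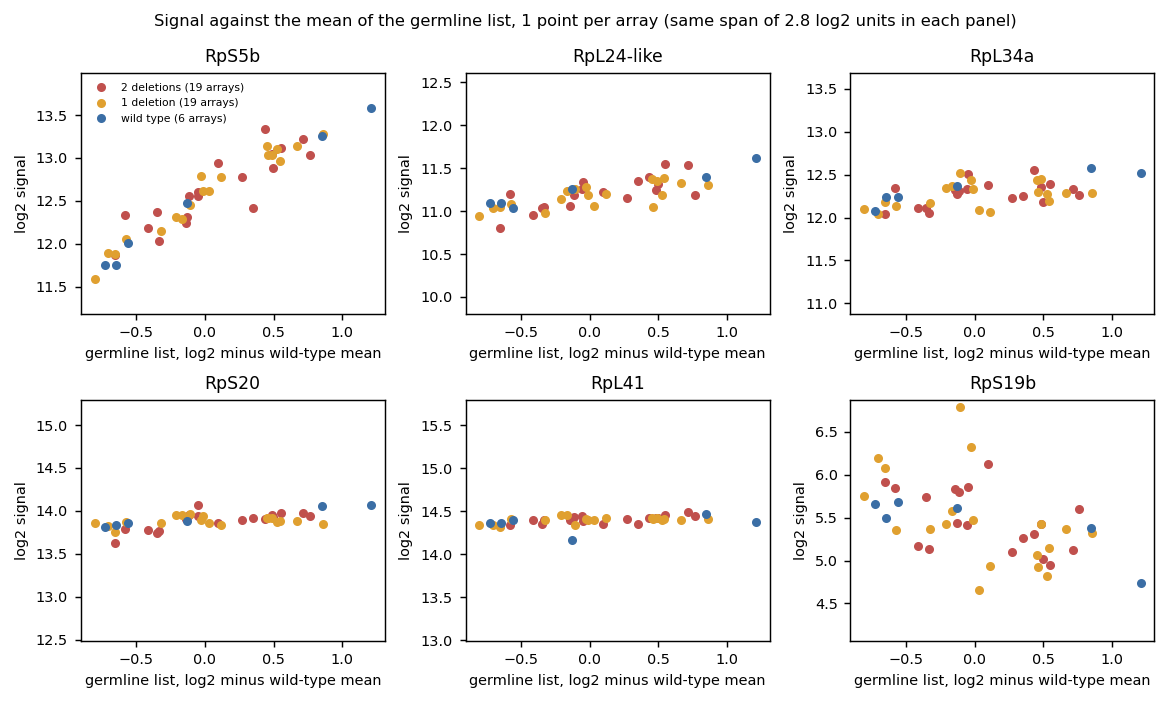
Log2 signals of 6 members (y axis, the same span in each panel) against the mean of 33 germline marker genes relative to wild type (x axis, log2) on 44 arrays, for flies of 2 deletions, 1 deletion and wild type. RpS5b climbs with a slope of 0.94, RpL24-like and RpL34a climb less (0.31 and 0.23), RpS20 and RpL41 are nearly flat (0.15 and 0.04), and RpS19b runs the other way at -0.22.

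The germline list also differed between the array-number sets, with a median of 0.49 in deletion arrays from number 27 and -0.14 in those up to 26. Without the term for these sets, 26 members passed and their median slope was 0.0565. In the carrier fit, 11 of 34 members passed for the term from 27 over up to 26, against 47.9% of all genes (28.5% higher and 19.4% lower). Of these members, 5 were higher from 27: RpS5b (0.64), the stalk proteins RpLP0 (0.20), RpLP2 (0.10) and RpLP1 (0.08), and RpL3 (0.18), which lies near the peptidyl transferase centre. The 6 lower ones were RpL29 (-0.14), RpL36A (-0.11), RpL39 (-0.10), RpS30 (-0.10), RpS29 (-0.08) and RpL37A (-0.07). ED5071 and ED7665, single and double, have numbers from 27 only, and RpS5b stood at 13.04 or higher in their single arrays.

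Paralogs were represented unevenly. For RpS28, RpL10A and RpL37 one gene of the pair was bright and steady and the other averaged under 6. RpS28b lay between 13.99 and 14.19 in the doubles and between 14.05 and 14.18 in the singles, against 14.08 to 14.21 in wild type. RpS28a lay between 5.08 and 5.58 in the doubles and between 5.05 and 5.65 in the singles, against 5.10 to 5.78 in wild type. RpS28-like lay between 4.18 and 4.86 in the doubles and between 4.28 and 4.78 in the singles, against 4.41 to 4.66 in wild type.

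RpL10Ab had 13.71 to 13.95 in the doubles and 13.65 to 13.93 in the singles, against 13.82 to 14.05 in wild type. RpL10Aa had 4.54 to 5.16 in the doubles and 4.46 to 5.09 in the singles, against 4.56 to 5.01 in wild type. RpL37-1 had 13.39 to 13.68 in the doubles and 13.45 to 13.68 in the singles, against 13.48 to 13.71 in wild type. RpL37-2 had 5.73 to 6.23 in the doubles and 5.85 to 6.32 in the singles, against 5.66 to 6.10 in wild type. In each of these pairs both genes had overlapping classes. RpL22-like, a paralog of RpL22 known from the testis, averaged 3.56, with 3.15 to 3.89 in the doubles and 3.37 to 4.10 in the singles against 3.35 to 3.79 in wild type. Such values are at the low end of the array and are compressed by the normalisation, and signals of different probe sets are not on one scale, so they give no ratio between paralogs. The partners RpS5a, RpS10b, RpS19a, RpL22 and RpL34b were not analysed here.

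Among the dim members, RpS19b and RpS10a moved most between arrays, with SDs of 0.441 and 0.369. RpS19b is a paralog of RpS19a known from the early female germline. It was 6.19, 6.79 and 5.36 in ED1770 and 6.08, 6.32 and 5.32 in ED10953. The other single deletions ran from 4.65 to 5.75, the doubles from 4.95 to 6.13, and wild type read 5.66, 5.61, 5.50, 4.74, 5.38 and 5.68. Replicates 1 and 2 of ED1770 and ED10953 were thus above every wild-type array, and replicate 3 of each was not. The former are numbered up to 26 and the latter from 27. Among doubles numbered up to 26, ED10953 with ED4559 (5.84), ED1612 (6.13) or ED3 (5.74) exceeded every wild-type array. So did ED1770 with ED4559 (5.79) or ED1612 (5.83), while ED1770 with ED3 (5.26) did not. Without either deletion, ED3 replicate 1 (5.75) and ED4559 with ED1612 (5.86), numbered up to 26, also exceeded every wild-type array. ED1612 replicates 1 and 2 (5.36 and 5.42), in the same set, did not. ED5071 with ED10953, numbered from 27, did (5.91). In that set ED7665 with ED10953 (5.31) and ED1770 with ED5071 (5.60) or ED7665 (5.12) did not. The part of array set in this split was not tested.

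For RpS10a the 4 arrays of replicates 1 and 2 of ED1770 and ED10953 were the highest of the single deletions. It was 5.22, 5.95 and 4.91 in ED1770 and 6.17, 5.33 and 4.84 in ED10953. The other single deletions ran from 4.52 to 4.95, the doubles from 4.38 to 5.37, and wild type read 4.85, 4.69, 4.93, 4.38, 4.71 and 4.81. The highest doubles carried ED10953 or ED1770. ED10953 read 5.37 with ED4559, 5.35 with ED1612 and 5.17 with ED5071, but 4.97 with ED3 and 4.75 with ED7665. ED1770 read 5.33 with ED5071 and 5.13 with ED1612, but 4.70 with ED4559, 4.64 with ED3 and 4.53 with ED7665. ED4559 with ED1612, without either deletion, read 5.05. Both genes averaged under the filter and were not tested with the others. Their slopes on the germline list, given with no test, were -0.22 for RpS19b and -0.18 for RpS10a, opposite in sign to the 34 tested members. Among the other 5 dim members the slopes lay between -0.13 (RpS28-like) and 0.06 (RpL10Aa).

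For 4 members the array held more than 1 probe set of the gene alone, and they did not read alike. RpS29 had probe sets averaging 14.16, 13.96 and 3.47, RpS7 13.85 and 4.78, RpL3 13.49, 7.10 and 3.81, and RpS30 13.56 and 8.47. The dimmer probe sets of RpL3 (SD 0.275, at 7.10) and RpS30 (SD 0.360) varied more over the 44 arrays than the brighter ones (SD 0.112 and 0.0876). Averaging all probe sets of a gene left the counts of members that passed unchanged in the comparisons with wild type, in the doubles against singles and in the carrier fit.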

How the data were processed

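Each sample was 1 Affymetrix array of 15 whole females. The deposited log2 signals were made by the authors with RMA, per the submitters' processing notes, a method of background correction, between-array normalisation and probe summary. The log base was taken from the range, 2.58 to 14.66. For RMA's version, the build and the annotation: not given in the sources used here. RMA compresses low signals, and very high signals can be compressed by the array. Groups came from the labels.

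Of 18952 probe sets, 13647 had 1 gene symbol, 402 several and 4903 none. Genes were matched by identifier to Release 6, used for names and gene order only. The probe set with the highest mean stood for a gene, and 7485 genes averaging 6 or more entered the tests. Segments were mapped as the highest-scoring run of lower neighbours in carriers (offset 0.3, limit 0.7 per gene), and genes inside the segment concerned were left out of each comparison.

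Group means of 25 wild-type and single-deletion arrays, doubles against singles, and an additive carrier fit over 38 deletion arrays with a term for array-number set were fitted in limma 3.58.1 (R 4.3.3) with a trend on the mean, with Benjamini-Hochberg adjustment at 0.05 over all tested genes. The fits were checked on simulated arrays with known changes. Alternatives were the filter, probe-set averaging, median centring, no trend, list covariates, a replicate block, array sets and leaving out each replicate.

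Named with values were members of paralog groups, the 5 called members with the largest rise and fall per comparison, the 3 highest and 3 lowest means, the 5 largest SDs, and up to 3 called genes per other list. RpS20, RpL17, RpL27, RpL37A, RpL40, RpS21 and eIF4A were named beyond that after their values were seen. The members and lists were chosen with earlier results of these data known.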

Additional observations from a re-analysis of the deposited data

Results flagged for a closer look

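Among the 6 wild-type arrays, 22 genes with values printed above were screened for an array far from the others, and 2 had one by Dixon's ratio at the 95% level; chance gives about 1 in 20. RpS19b read 4.74 in wild-type replicate 4, against 5.38 to 5.68 in the other 5, with a ratio of 0.681. That array also had the highest germline list of the wild-type arrays (1.21). RpL41 read 14.17 in wild-type replicate 2, against 14.36 to 14.47 in the other 5, with a ratio of 0.645.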

How the results depend on the processing

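The doubles against singles and the F test gave 0 members in every setting run. For single deletions against wild type, a replicate block gave 1 member (RpS5b, higher) and leaving out each replicate gave 0. For each deletion against wild type, the germline covariate gave 1 call (RpS12, lower in ED10953), the replicate block 3 distinct members (RpS5b and RpL3 in ED5071 and ED7665, RpL27 in ED5071, all higher), and leaving out a replicate 0 to 1, the 1 being RpS12 without wild-type replicate 1. For carriers against non-carriers, with 2 calls, no filter gave 1, median centring 1, no trend 1, and the fits within arrays up to 26 and from 27 1 each. The germline covariate gave 6: RpS12, RpS27A and RpS20 lower and RpLP1 higher in ED10953, and RpL29 and RpLP0-like lower in ED1770. No array-set term gave 4, with RpL29 and RpL36A lower in ED5071 beside RpS12 and RpS27A. All 44 arrays without that term gave 8. Added there were RpS28b and RpS29 lower in ED5071, and in ED7665 RpL3 and RpLP0 higher and RpS29 lower. Leaving out a replicate gave 2 throughout. RpS12 in ED10953 carriers stayed between -0.24 and -0.21 and passed in 11 of 11 settings and 19 of 19 leave-one-out fits. The eggshell covariate, the fits within array-number sets and the germline slope were chosen after seeing the data. The germline slope count of 33 was 12 with centring, against 73.7% of all genes in either direction. It was 11 within wild type (63.7%), 4 within arrays up to 26 (18.4%), and 31 to 34 when a replicate was left out. The cause of these changes was not tested, except that the fits within array sets use fewer samples. The labels state no pairing of same-numbered samples, but such samples can share an array-number set. In deletions with 3 arrays, replicates 1 and 2 are numbered up to 26 and replicate 3 from 27. Over 71 same-numbered pairs the deviations correlated between -0.729 and 0.849 (median 0.231), with 44 over 0.1. The source of these correlations was not tested. Signals near either end of the array limit what small differences or dim paralogs can show.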
